A study of Mus musculus with 15 samples.

Results

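The transcripts described here are those of the mitochondrial genome, the 37 gene symbols beginning with mt- among the 55984 symbols of the count table. They comprise 13 mRNA genes, 2 rRNA genes and 22 tRNA genes and were taken by the start of their name. RNA was sequenced from hepatocytes of WT adult male C57BL/6JJcl mice, stained with the DNA dye Hoechst and sorted from the liver of each of 4 mice by flow cytometry. The 15 libraries were diploid cells (2n-whole, mice 1 to 4), tetraploid cells (4n-whole, mice 1 to 4) and the parts of the tetraploid gate with a low (4n-bottom, mice 1 to 4) or high (4n-top, mice 2 to 4) Hoechst peak height. The 4n-bottom gate favors cells with a pair of diploid nuclei and the 4n-top gate cells with a single tetraploid nucleus, and 4n-top was sorted in a single round, so that it also held binucleated cells. The authors left out the 4n-top library of mouse 1 for poor RNA quality, and after sorting the 2n cells were spun harder and longer than the 4n cells, so that this handling cannot be told apart from ploidy. Libraries with the same mouse number came from the same liver, and the 3 comparisons with 2n-whole share those 4 libraries.

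The mitochondrial genome is a small circular DNA present in many copies per cell. A single nuclear-encoded RNA polymerase reads both strands into long transcripts that span many genes, and enzymes cut these at the tRNAs that stand between most of the rRNAs and mRNAs. All 13 mRNAs encode subunits of the respiratory chain and ATP synthase, the 2 rRNAs build the mitochondrial ribosome that translates them, and every other protein of the organelle comes from nuclear genes. Hepatocytes are rich in mitochondria, which carry out fatty acid oxidation and parts of the urea cycle and of gluconeogenesis.

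On the GRCm39 assembly the genome is 16299 bases long, and 9 of the 37 genes lie on its minus strand. mt-Rnr1 (12S rRNA, chrM:70-1024) and mt-Rnr2 (16S rRNA, chrM:1094-2675) come first, followed by mt-Nd1, mt-Nd2, mt-Co1, mt-Co2, mt-Atp8, mt-Atp6, mt-Co3, mt-Nd3, mt-Nd4l, mt-Nd4, mt-Nd5, mt-Nd6 and mt-Cytb. Of the mRNA genes only mt-Nd6 (chrM:13552-14070) is on the minus strand. Several genes touch or overlap, and 2 overlaps and 1 nuclear copy are shown because they set which reads can be given to which gene. The 43 bases shared by mt-Atp8 and mt-Atp6 on the plus strand are in capitals in the first line (chrM:7907-7989), and the 14 bases where mt-Nd5 and the opposite strand's mt-Nd6 end are in capitals in the next (chrM:13532-13585).
mt-Atp8 and mt-Atp6: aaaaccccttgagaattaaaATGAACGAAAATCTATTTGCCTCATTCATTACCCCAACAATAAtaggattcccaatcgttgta
mt-Nd5 and mt-Nd6: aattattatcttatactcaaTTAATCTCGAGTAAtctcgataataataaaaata

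A search of the nuclear genome with the mitochondrial sequence found a nearly identical copy of a stretch of it, 4654 aligned bases on the minus strand of chromosome 1 (chr1:24650616-24655269) and identical at 99.94% of positions to mitochondrial bases 6390 to 11042. It differs from the mitochondrial sequence at 3 places, in mt-Co1, mt-Nd3 and mt-Tr. The start of mt-Nd3 is shown on the mitochondrial genome (chrM:9431-9491) and in the copy (chr1:24652168-24652228, minus strand), with the differing base in capitals.
mt-Nd3, mitochondrial: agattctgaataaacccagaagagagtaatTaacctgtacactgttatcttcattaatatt
mt-Nd3, chromosome 1: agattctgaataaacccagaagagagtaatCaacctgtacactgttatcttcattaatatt
The copy holds 11 mitochondrial genes whole, namely the mRNA genes mt-Co2, mt-Atp8, mt-Atp6, mt-Co3, mt-Nd3 and mt-Nd4l and 5 tRNA genes. It also covers 31.3% of mt-Co1 and 63.6% of mt-Nd4, and the other 5 mRNA genes and both rRNA genes lie outside it. Other long alignments that hold mRNA genes whole are less alike. One on chromosome 2 (chr2:22477300-22480546, minus strand, 97.36% identical) holds mt-Co1 and mt-Co2 whole, and one on chromosome 4 (chr4:79920567-79923441, plus strand, 93.01% identical) holds mt-Nd6 and mt-Cytb whole.

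Levels followed this map, as the plot of levels per kb shows. Over the 15 libraries, the 7 mRNA genes not wholly inside the copy ranged from 966 CPM per kb (counts scaled to a common library total and to gene length) for mt-Nd4 to 5809 for mt-Co1, the catalytic subunit of complex IV. The 6 mRNA genes wholly inside it ranged from 3.22 CPM per kb for mt-Atp8 to 79.2 for mt-Atp6, the ATP synthase subunits. mt-Co2 and mt-Co3, which encode the other core subunits of complex IV, stood between these, mt-Co2 at 12.1 CPM per kb. The 6 tested pseudogenes annotated in the copy had group means between 31.8 and 191 normalized CPM. Reads that match both places cannot be told apart, and how the authors counted them is not given in the sources used here, so the levels of these 6 mRNAs are uncertain.

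**Figure D1:**
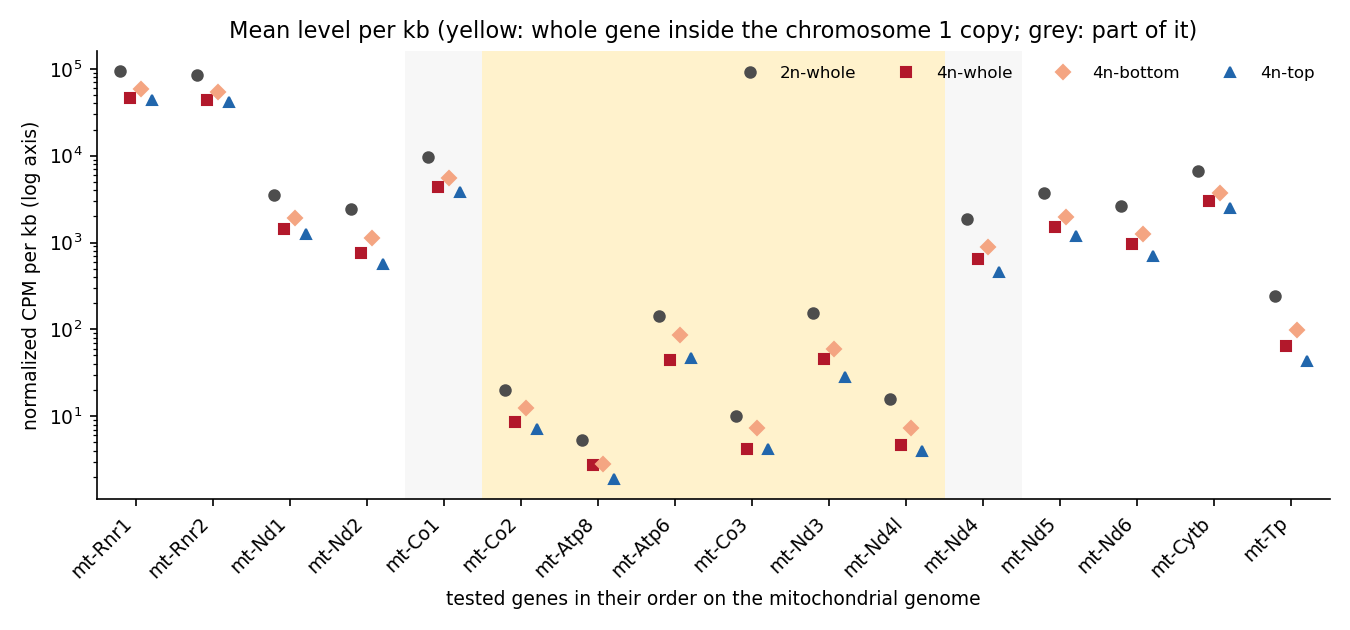
Mean normalized CPM per kb of gene length (log axis) of the 16 tested mitochondrial genes in 4 populations, in genome order. The 6 mRNA genes on the yellow ground lie wholly inside the chromosome 1 copy and sit below every other mRNA gene, while 2n-whole (dark circles) is the highest population for each gene.

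The rRNAs were the most abundant, at 60572 CPM per kb for mt-Rnr1 and 55470 for mt-Rnr2, and mt-Rnr2 alone held 52.1% of all mitochondrial counts and mt-Rnr1 34.4%. Among the mRNA counts, mt-Co1 held 39.4%, mt-Cytb (the complex III subunit cytochrome b) 19.9%, mt-Nd5 16.9%, mt-Nd1 8.55%, mt-Nd4 5.93%, mt-Nd2 5.66% and mt-Nd6 3.21%, the last 5 all being complex I subunits. The 6 mRNAs inside the copy had 0.242% or less each. Of the 22 tRNA genes, which are 59 to 75 bases long, 18 had 0 counts in every library, which allows up to 0.0713 to 0.136 CPM per library at 3 counts. mt-Te, mt-Tf and mt-Tn had at most 8 counts in a library. mt-Tp, the proline tRNA, was the exception, with counts of 30 to 715 in the 15 libraries and a mean of 7.45 CPM. Its gene (chrM:15356-15422, minus strand) is shown in full because it is the only tRNA gene that could be tested.
mt-Tp: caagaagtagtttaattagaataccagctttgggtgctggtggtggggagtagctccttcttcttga

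Total counts were 22049498 to 42096421 per library, with the lowest in 4n-whole of mouse 2. The 10 hepatocyte markers summed to between 92399 and 121035 CPM in every library, and markers of blood cells to at most 1.79 CPM. The 95% Wilson intervals of the mitochondrial share were at most 0.0306 percentage points wide, which covers counting error only, so that the spread between mice sets the error.

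Mitochondrial transcripts made up a smaller share of the RNA in 4n-whole than in 2n-whole hepatocytes of every mouse. In 2n-whole they were 20.5%, 23.2%, 26.2% and 26.0% of all counts in mice 1 to 4 (24.0% ± 2.71, SD, n = 4). In 4n-whole they were 18.5%, 8.84%, 15.7% and 11.0% (13.5% ± 4.40, SD, n = 4). The ranges of these populations did not overlap, and the difference within a mouse was smallest in mouse 1, where the share fell by 1.93 percentage points, against falls of 10.5 to 15.0 points in the others. In 4n-bottom the share was 23.6%, 15.0%, 12.2% and 14.0% (16.2% ± 5.06, SD, n = 4), lower than 2n-whole in 3 of 4 mice and higher in mouse 1, so that the ranges overlapped. The 4n-top libraries of mice 2 to 4 were close together at 11.9%, 13.02% and 12.7% (12.6% ± 0.566, SD, n = 3) and lay below all 2n-whole libraries. Between the tetraploid fractions the share was lower in 4n-top in 2 of 3 mice, with a mean difference within a mouse of -1.15 ± 1.94 percentage points (SD, n = 3), while the difference of the population means, which includes 4n-bottom of mouse 1, was -3.61 points. Although these fractions are parts of the tetraploid gate, the 4n-whole share did not lie between them in mice 2 to 4. It was below both in mice 2 and 4 and above both in mouse 3. Tetraploid libraries of a mouse thus differed by some points for reasons that were not tested. In bulk RNA, less mitochondrial RNA per cell and more nuclear-encoded RNA per cell cannot be told apart.

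**Figure D2:**
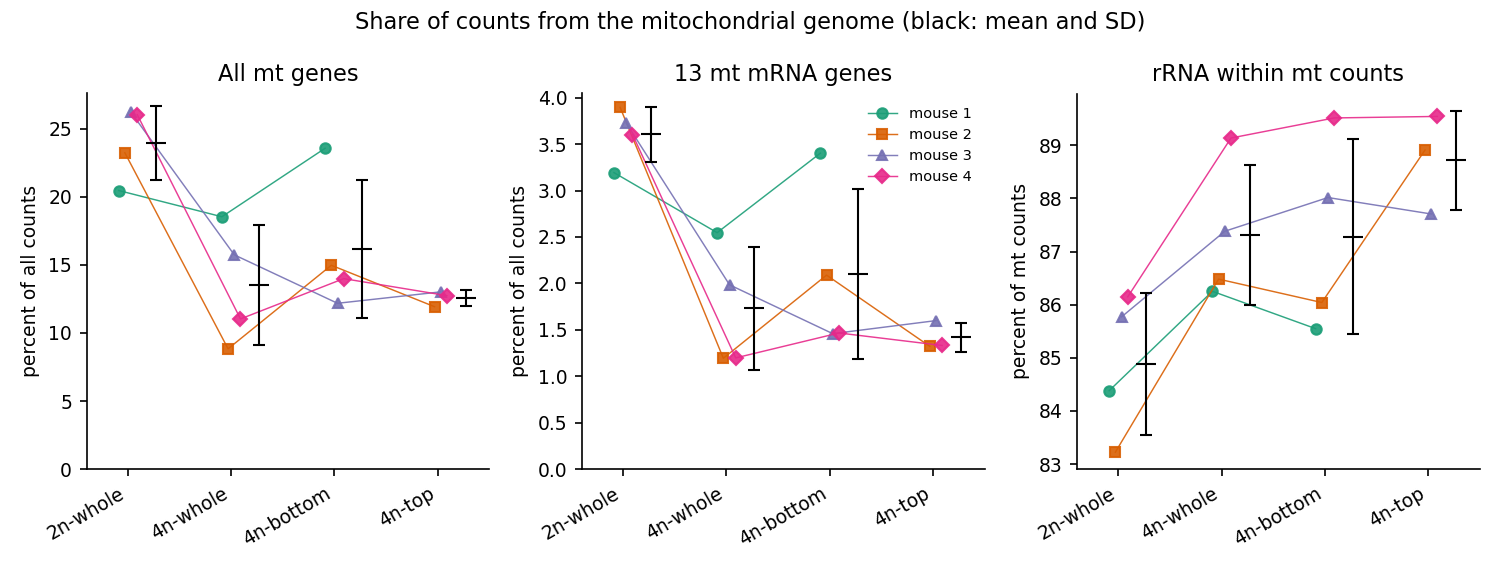
Percent of all counts from the 37 mitochondrial genes (left) and from the 13 mRNA genes (middle), and percent of mitochondrial counts from the 2 rRNA genes (right, axis not from 0), in 4 populations. Colored points joined by lines are the libraries of a mouse and black bars the mean and SD, and mouse 1 stands above the other mice in the 4n populations of the left and middle panels.

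The mRNAs alone had means in the same order, though mouse 1 enters those of 4n-whole and 4n-bottom and not that of 4n-top. They held 3.60% ± 0.299 of all counts in 2n-whole and 1.73% ± 0.659 in 4n-whole (SD, n = 4 for each). In the tetraploid fractions they held 2.10% ± 0.914 in 4n-bottom (SD, n = 4) and 1.42% ± 0.157 in 4n-top (SD, n = 3). The share was lower than in 2n-whole in 4 of 4 mice for 4n-whole, in 3 of 4 for 4n-bottom and in 3 of 3 for 4n-top. The rRNAs were a larger fraction of mitochondrial RNA in tetraploid cells. They held 84.9% ± 1.34 of mitochondrial counts in 2n-whole against 87.3% ± 1.31 in 4n-whole and 87.3% ± 1.83 in 4n-bottom (SD, n = 4 for each), and 88.7% ± 0.933 in 4n-top (SD, n = 3). This fraction was higher than in the 2n-whole library of the same mouse in all 11 tetraploid libraries.

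Gene by gene, 16 of the 37 members passed the filter on low counts, the 13 mRNAs, both rRNAs and mt-Tp, and each of the 16 had counts in all 15 libraries. The test was the quasi-likelihood F test of edgeR with the mouse as a block, and a gene was called at a Benjamini-Hochberg adjusted p below 0.05 over all 17488 genes tested and a log2 fold change beyond 0.5 in size. Over the 4 populations at once, 15 of the 16 had an adjusted p below 0.05, where 1.95% of all genes did. mt-Nd4 (adjusted p = 2.02e-06), mt-Nd6 (adjusted p = 2.23e-06) and mt-Nd2 (adjusted p = 2.71e-06) had the smallest, and mt-Atp8 (adjusted p = 0.712) was the exception.

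In 4n-whole compared with 2n-whole, 15 of the 16 were called lower and none higher, where 3.47% of all genes were called in either direction and 1.73% lower. The exception was mt-Atp8, with a log2 fold change of -0.98 ± 0.63 (SE) and an adjusted p of 0.422. The fold changes ran from -0.98 to -2.59 on the log2 scale, with a median of -1.43 beside -0.01 over all genes tested. In 14 of the 16 every 4n-whole library lay below every 2n-whole library, as did 3.09% of all genes. All 16 were lower in each of the 4 mice, a share not worked out for all genes. Without the mouse as a block, edgeR called none of the 16 and 0.229% of all genes, the smallest adjusted p among the 16 being 0.0555. In that fit 15 of them had an unadjusted p below 0.05, a share not worked out there for all genes (20.4% with the block).

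The rRNAs differed less than most mRNAs. mt-Rnr2 stood at 107818, 129301, 146476 and 148496 normalized CPM in 2n-whole of mice 1 to 4 and at 94886, 40978, 83664 and 54948 in 4n-whole. Every 4n-whole library was below the 2n-whole libraries, though that of mouse 1 came close to its partner. The log2 fold change was -1.03 ± 0.15 (SE, adjusted p = 7.74e-05), or 2.04 times higher in 2n-whole, and that of mt-Rnr1 was -1.10 ± 0.17 (SE, adjusted p = 0.000105).

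Complex IV and complex III were close to the rRNAs. mt-Co1 had 12037, 16287, 16109 and 15271 normalized CPM in 2n-whole and 9853, 4177, 8128 and 4910 in 4n-whole, which gave -1.24 ± 0.17 as log2 fold change (SE, adjusted p = 3.37e-05). mt-Cytb had 5996, 8069, 8710 and 7795 normalized CPM against 4759, 2246, 4392 and 2432, again a log2 fold change of -1.24 ± 0.18 (SE, adjusted p = 4.16e-05). In both genes the populations did not overlap and mouse 2 had the lowest 4n-whole library. mt-Co2 (-1.24 ± 0.22, SE) and mt-Co3 (-1.29 ± 0.25, SE) were also called lower, at few counts and wholly inside the chromosome 1 copy.

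Complex I subunits had the larger fold changes among the well-counted mRNAs. mt-Nd2 had 2303, 2676, 2261 and 2871 normalized CPM in 2n-whole and 1335, 527, 876 and 389 in 4n-whole, which did not overlap and gave a log2 fold change of -1.89 ± 0.24 (SE, adjusted p = 6.81e-06), or 3.70 times higher in 2n-whole. mt-Nd4 followed with -1.74 ± 0.22 (SE), then mt-Nd6 with -1.60 ± 0.20, mt-Nd5 with -1.46 ± 0.20 and mt-Nd1 with -1.40 ± 0.20. mt-Nd6 is read from the other strand than the remaining mRNAs, and its normalized CPM fell from 1378, 1603, 1205 and 1243 in 2n-whole to 879, 316, 548 and 273 in 4n-whole (adjusted p = 7.32e-06). Which strand the authors counted is not given in the sources used here, so reads of mt-Nd6 cannot be told apart from those of the transcript opposite it. mt-Nd3 and mt-Nd4l, inside the chromosome 1 copy, had log2 fold changes of -1.997 ± 0.30 and -1.99 ± 0.43 (SE), and mt-Atp6 of the ATP synthase -1.81 ± 0.22. For comparison, the 6 tested pseudogenes of that copy had log2 fold changes of -0.34 for Gm10222 to -1.23 for Atp6-ps, and all but Gm10222 were called lower.

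The largest fold change was that of mt-Tp. It stood at 17.2, 7.27, 22.015 and 19.02 normalized CPM in 2n-whole and at 10.9, 1.203, 3.84 and 1.08 in 4n-whole, so that the 4n-whole library of mouse 1 lay above the 2n-whole library of mouse 2. Within each mouse it was lower in 4n-whole, with a log2 fold change of -2.59 ± 0.43 (SE, adjusted p = 0.000414). A mature tRNA this short is poorly captured by most RNA-seq libraries, and whether these reads are the mature tRNA or longer uncut transcripts was not tested.

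**Figure D3:**
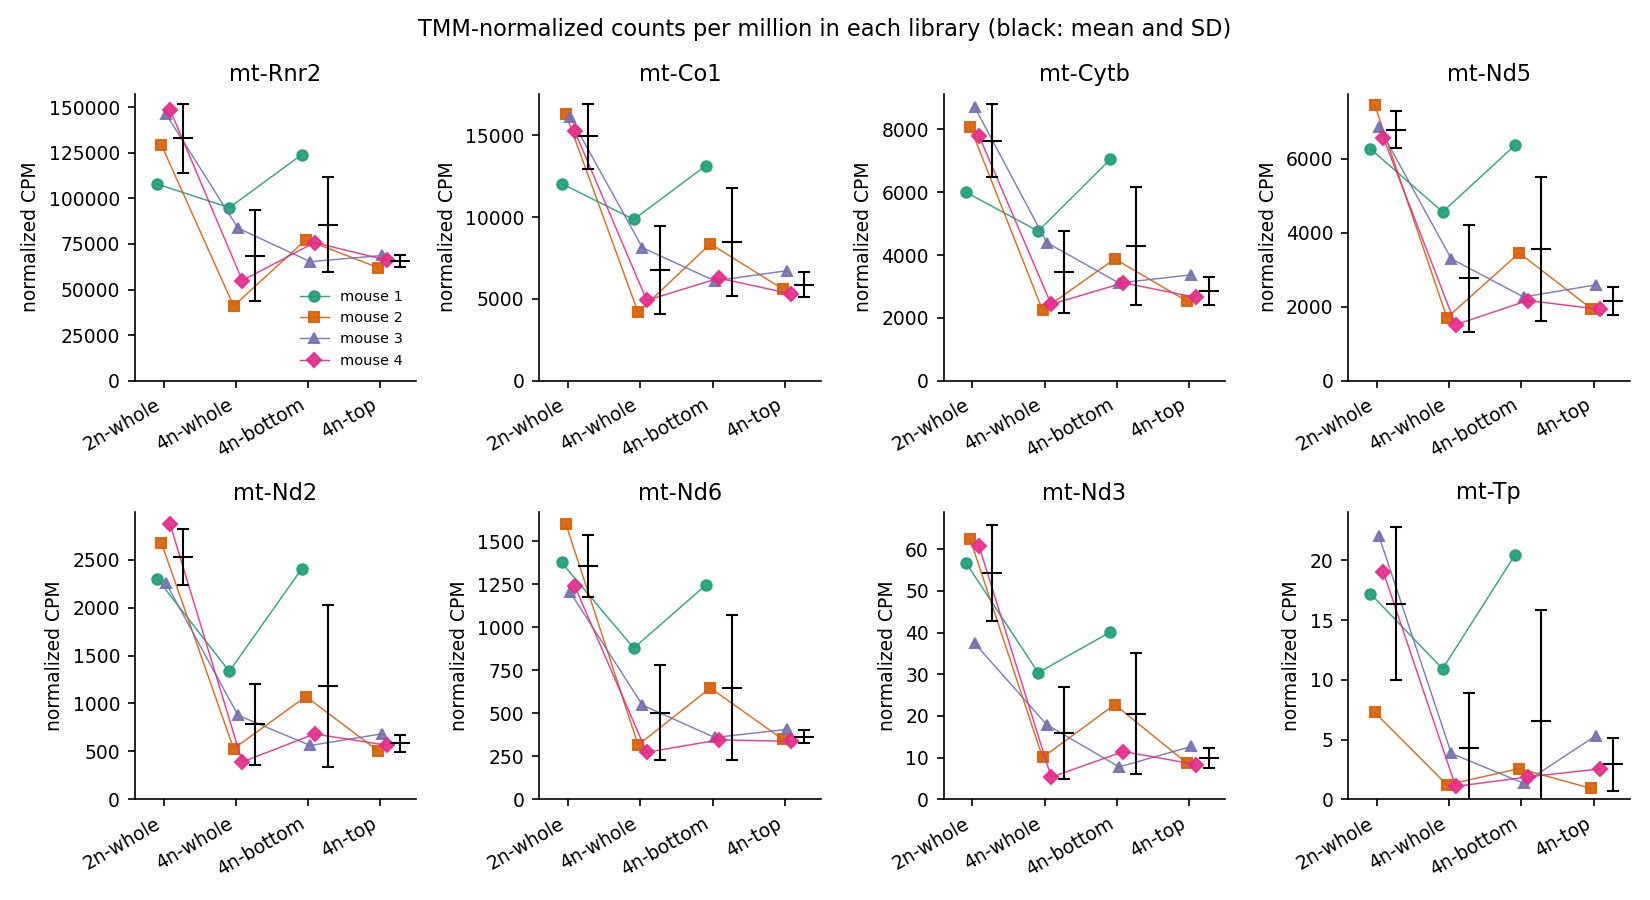
TMM-normalized CPM of 8 mitochondrial genes in each library, by population. Colored points joined by lines are the libraries of a mouse and black bars the mean and SD (bars reaching below 0 end at the axis). The 4n-bottom library of mouse 1 stays near its 2n-whole library except for mt-Nd3, where it is at 40.1 against 56.8.

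In 4n-bottom compared with 2n-whole, 11 of the 16 were called lower, where 0.463% of all genes were called and 0.229% lower, and the median log2 fold change was -0.98. These were both rRNAs, mt-Nd1, mt-Nd2, mt-Nd3, mt-Nd4, mt-Nd5, mt-Nd6, mt-Co1, mt-Cytb and mt-Tp. All 10 tested genes not wholly inside the chromosome 1 copy were among them, and of the 6 inside it only mt-Nd3 was. Ranges overlapped for every gene, since 4n-bottom of mouse 1 lay within or near the diploid range. For mt-Co1 the 4n-bottom libraries had 13144, 8362, 6101 and 6263 normalized CPM, a log2 fold change of -0.90 ± 0.17 (SE, adjusted p = 0.00670). For mt-Nd6 they had 1247, 647, 359 and 345, with a log2 fold change of -1.28 ± 0.20 (SE, adjusted p = 0.000723). mt-Nd2 had 2402, 1072, 561 and 681, with a log2 fold change of -1.36 ± 0.24 (SE, adjusted p = 0.00278). mt-Rnr1 (-0.74 ± 0.17, SE) and mt-Rnr2 (-0.69 ± 0.15, SE) had the smallest changes among the called genes. Of the 5 not called, mt-Atp6 came closest, at -0.90 ± 0.21 (SE, adjusted p = 0.0520), and mt-Co3 was at -0.40 ± 0.24 (SE, adjusted p = 0.604). Leaving out mouse 4 left 7 calls (0.261% of all genes) and leaving out the 4n-bottom library of mouse 1 left 13 (0.378%). Without the block none was called among the 16 and 0.0% of all genes. In that fit 11 of the 16 had an unadjusted p below 0.05, a share not worked out there for all genes (10.2% with the block).

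In 4n-top compared with 2n-whole, 14 of the 16 were called lower, where 0.961% of all genes were called and 0.52% lower, and the median log2 fold change was -1.42. All 16 had every 4n-top library below every 2n-whole library, as did 4.39% of all genes. mt-Co1 had 5607, 6722 and 5303 normalized CPM in 4n-top of mice 2 to 4, a log2 fold change of -1.27 ± 0.19 (SE, adjusted p = 0.000142). mt-Nd2 had 504, 684 and 564, with a log2 fold change of -1.95 ± 0.26 (SE, adjusted p = 3.03e-05). mt-Nd6 had 349, 406 and 337, with a log2 fold change of -1.70 ± 0.22 (SE, adjusted p = 2.39e-05). As in 4n-whole, the rRNAs changed least among the called genes, at -1.01 ± 0.18 (SE) for mt-Rnr1 and -0.95 ± 0.17 for mt-Rnr2. mt-Atp8 at -1.17 ± 0.71 (SE, adjusted p = 0.576) and mt-Nd4l at -1.80 ± 0.48 (SE, adjusted p = 0.0638) were not called. Without the block none of the 16 was called, and 0.0114% of all genes were, the smallest adjusted p among the 16 being 0.0661. In that fit all 16 had an unadjusted p below 0.05, a share not worked out there for all genes (11.3% with the block).

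**Figure D4:**
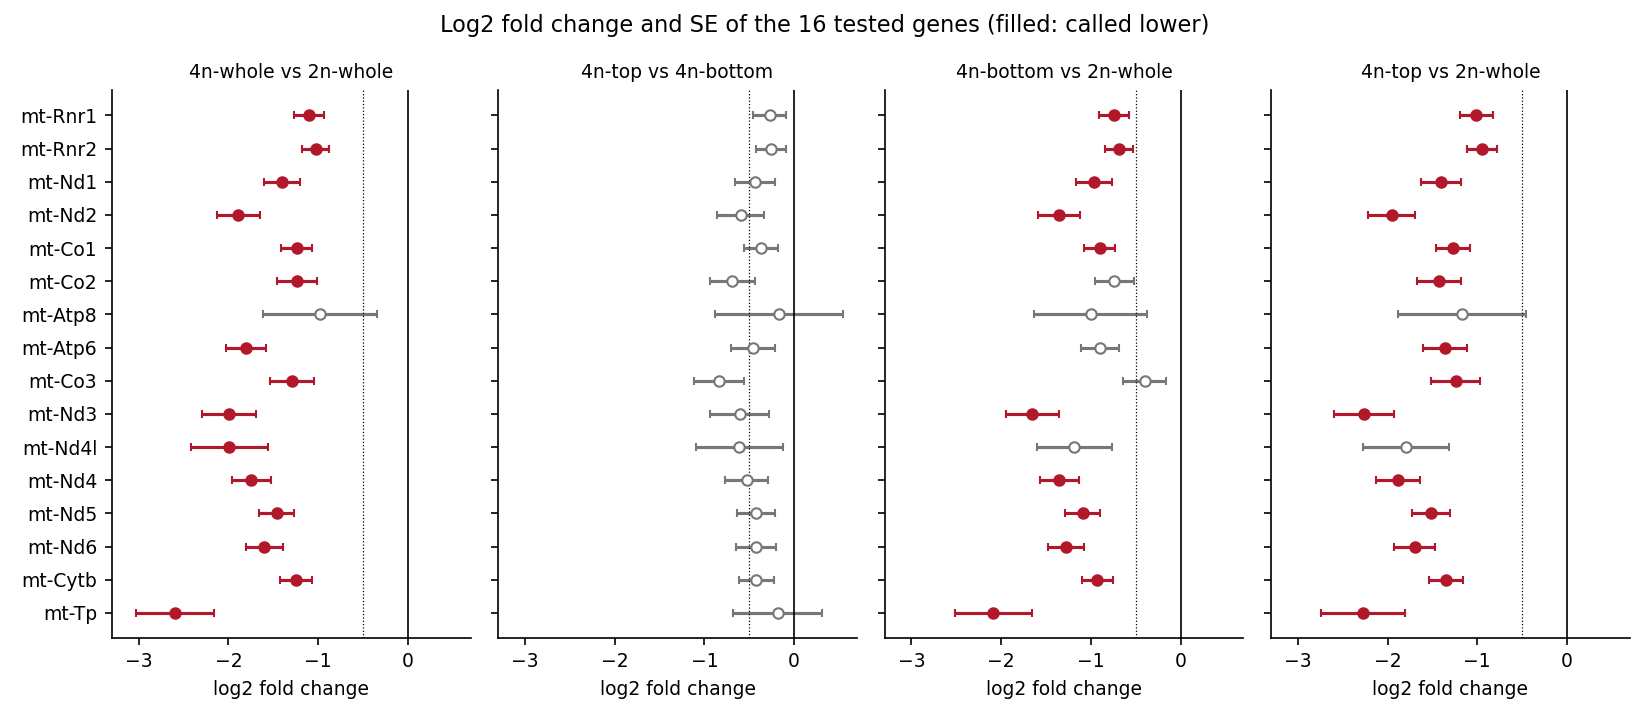
Log2 fold changes of the 16 tested genes in 4 comparisons, with SE, from the fit with the mouse as block. Filled points were called lower, 15, 0, 11 and 14 from left to right, and the dotted line is the fold limit.

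Between 4n-top and 4n-bottom no mitochondrial gene was called by edgeR, where 0.0114% of all genes were. All 16 estimates were negative, from -0.17 for mt-Atp8 to -0.84 for mt-Co3, and 5 had an unadjusted p below 0.05, as did 2.79% of all genes, while the adjusted p was 1.0 for each. DESeq2 with the mouse as block and ComBat-seq followed by DESeq2 also called 0 of them, as did edgeR without the block. Over all genes these called 7.64%, 0.0458% and 0.0%, and the 3003 genes behind the first share had a median of 14 counts summed over the 15 libraries. edgeR without the filter on low counts called 2, mt-Nd2 and mt-Nd4, where 0.0636% of all genes were called. The smallest unadjusted p of the F test among mitochondrial genes was then 9.2e-12, against 0.0055 with the filter, so these 2 calls depend on the filter. For mt-Co1 the log2 fold change was -0.36 ± 0.19 (SE), and within a mouse it was -0.58, 0.14 and -0.24 in mice 2 to 4, so that mouse 3 went the other way. mt-Co3, at 1.99, 4.49 and 3.28 normalized CPM in 4n-top of mice 2 to 4 against 7.60, 5.30, 5.05 and 5.12 in 4n-bottom of mice 1 to 4, was the only gene whose ranges did not overlap, as 1.78% of all genes were in this direction, and its level is uncertain because of the chromosome 1 copy.

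Whether single mitochondrial genes departed from the rest of their genome was examined by scaling every library to its 13 mitochondrial mRNA counts. On that scale the 16 genes lay between -1.19 and 0.42 in 4n-whole compared with 2n-whole, and 1 was called, mt-Tp (-1.19 ± 0.41, SE, adjusted p = 0.00767), where 64.0% of all genes were called. In 4n-bottom compared with 2n-whole mt-Tp was again the only call (-1.13 ± 0.41, SE, adjusted p = 0.0213, 50.3% of all genes). In 4n-top compared with 2n-whole edgeR called none of the 16, with 1 at an unadjusted p below 0.05 (60.9% of all genes called), and between the tetraploid fractions none, with none at an unadjusted p below 0.05 and 0.0% of all genes called. mt-Nd2, the lowest of the well-counted mRNAs, was at -0.50 ± 0.32 (SE, adjusted p = 0.164) in 4n-whole, and mt-Rnr2 at 0.32 ± 0.24 (SE, adjusted p = 0.233). In 4n-whole the SE of mt-Co1 was 0.28 on this scale, against 0.17 with TMM over all genes. A missing call therefore does not show that a gene kept its part of the mRNA counts. Without a test, mt-Nd2 held 6.45% ± 0.737 of mitochondrial mRNA counts in 2n-whole and 4.58% ± 0.768 in 4n-whole (SD, n = 4 for each). It was lower in 4 of 4 mice, and the ranges did not overlap. Counted as a composition, complex I mRNAs were 42.5% of mitochondrial mRNA counts in 2n-whole and 37.4%, 38.5% and 36.1% in 4n-whole, 4n-bottom and 4n-top. Those of complex IV were 37.9% and then 41.3%, 40.8% and 43.0%. Nearly all of the complex IV part was mt-Co1, at 37.8% and then 41.2%, 40.8% and 42.9%. mt-Co2, mt-Co3, mt-Nd3 and mt-Nd4l lie inside the chromosome 1 copy and mt-Nd4 lies partly in it, so these parts do not measure whole complexes. The complex I part was lower and the complex IV part higher than in the 2n-whole library of the same mouse in all 11 tetraploid libraries. Not every complex I mRNA shared this drop. mt-Nd1 held 8.51% in 2n-whole and 8.32%, 8.73% and 8.80% in 4n-whole, 4n-bottom and 4n-top. It was higher than in 2n-whole in 3 of 4, 2 of 4 and 2 of 3 mice. Counts of mt-Nd6 were 0.2001 per count of mt-Nd5 in 2n-whole and 0.181, 0.176 and 0.171 in the 4n populations.

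Nuclear genes that make, copy or use mitochondrial RNA were compared between 4n-whole and 2n-whole, where 3.47% of all genes were called, 1.73% lower, and 20.4% had an unadjusted p below 0.05. None of 8 tested genes of mitochondrial transcription was called by edgeR, and 2 of the 8 (25.0%) had an unadjusted p below 0.05. Tfam, which packages the mitochondrial DNA and starts its transcription, was at -0.31 ± 0.12 (log2 fold change, SE, adjusted p = 0.127), Mterf3 at -0.53 ± 0.23 (adjusted p = 0.185) and the RNA polymerase Polrmt at 0.24 ± 0.12 (adjusted p = 0.250). Of 21 genes that cut, modify or degrade mitochondrial RNA 1 (4.76%) was called lower, Pnpt1 (polynucleotide phosphorylase, -0.60 ± 0.16, SE, adjusted p = 0.0262), while Fastkd2 was at -0.52 ± 0.20 and Trmt10c, a subunit of mitochondrial RNase P, at -0.34 ± 0.15. Of 12 genes that copy and maintain the mitochondrial DNA 1 (8.33%) was called lower, the single-strand binding protein Ssbp1 (-0.56 ± 0.16, SE, adjusted p = 0.0323). Polg, the catalytic subunit of the DNA polymerase, was at 0.45 ± 0.13 (adjusted p = 0.0375), under the fold limit, and Top1mt at 0.26 ± 0.11 (adjusted p = 0.167). Of 8 regulators of mitochondrial biogenesis 2 (25.0%) were called. Ppargc1a, the coactivator PGC-1 alpha, was called lower (-0.59 ± 0.13, SE, adjusted p = 0.00682) and its relative Pprc1 higher (0.50 ± 0.15, SE, adjusted p = 0.0413), and Gabpa was at -0.43 ± 0.14 (adjusted p = 0.0714).

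The partners of the mitochondrial products had smaller fold changes than the products. Of 78 nuclear subunits of the respiratory chain and ATP synthase 7 (8.97%) were called lower and none higher, and 33 (42.3%) had an unadjusted p below 0.05, with a median log2 fold change of -0.08. The smallest p belonged to Cox7b (-0.72 ± 0.16, SE, adjusted p = 0.00661) and Cox6b1 (-0.51 ± 0.11, SE, adjusted p = 0.00756), both of complex IV. Of 77 mitoribosomal protein genes 3.9% were called, near the share of all genes, and 22 (28.6%) had an unadjusted p below 0.05. Called lower were 2, Mrpl42 (-0.84 ± 0.18, SE, adjusted p = 0.00633) and Mrps18b (-0.85 ± 0.22, SE, adjusted p = 0.0237), and 1 was called higher, with a list median of -0.04. The one called higher, Mrps26 (log2 fold change 0.54), was named after its values were seen. Of the 8 called nuclear genes named here other than Mrps26, 8 lost the call without the block or without mouse 4. The call was lost by 5 without the libraries of mouse 2, and by 5 without the 4n-whole library of mouse 2. With only the libraries of the compared populations 5 lost it. With the mean level of endothelial, Kupffer cell and stellate cell markers as a covariate 3 lost it. All 8 had the same direction in each of these fits. In the other 3 comparisons edgeR called no gene of these 6 lists, which held at most 11 and 12 genes at an unadjusted p below 0.05, in the respiratory chain and mitoribosomal lists of 4n-top compared with 2n-whole (14.1% and 15.6%, where 11.3% of all genes were).

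**Figure D5:**
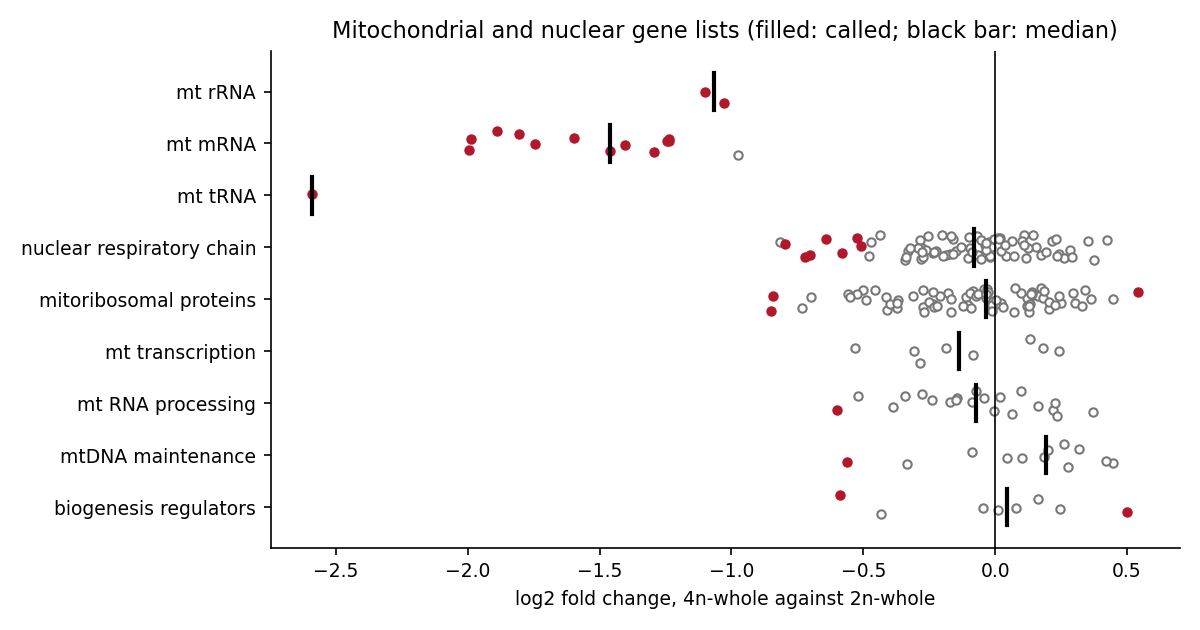
Log2 fold changes in 4n-whole compared with 2n-whole of the tested mitochondrial genes and of nuclear lists tied to the organelle. Each point is a gene, filled where called, and black bars are list medians, which lie between -1.06 and -2.59 for the mitochondrial classes and between -0.14 and 0.19 for the nuclear lists.

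Other measures are given by population, several with overlapping ranges. Their part in the mitochondrial differences was not tested except where a value is given. Scaling every library to its nuclear counts left 15, 0, 11 and 14 calls in the order of the plot of fold changes. Of all genes 3.44%, 0.0114%, 0.457% and 0.961% were called. These are the numbers of the TMM fit over all genes, but both scales were nearly the same, so this is no independent check. In 4n-whole compared with 2n-whole the log2 fold changes ran from -2.5911 to -0.9765, against -2.5901 to -0.9767 with TMM over all genes. The 7 nucleus-retained transcripts, led by Malat1 and Neat1, summed to 9245 to 22056 CPM in 2n-whole, 14030 to 24113 in 4n-whole, 11345 to 23741 in 4n-bottom and 11995 to 15940 in 4n-top. The 14 genes of the dissociation response summed to 1920 to 2769 CPM in 2n-whole, 2604 to 4681 in 4n-whole, 2293 to 3248 in 4n-bottom and 2801 to 3289 in 4n-top. Markers of bile duct cells summed to 32.0 to 46.1 CPM in 2n-whole and 17.8 to 35.3 over the 4n libraries, and endothelial markers to 17.5 to 28.6 and 7.74 to 43.7 CPM. A fit with a covariate beside the block used the mean level of endothelial, Kupffer cell and stellate cell markers, without the bile duct markers. In it 13 mitochondrial genes were called lower in 4n-whole, 1 (mt-Nd6) in 4n-bottom and 2 (mt-Nd4 and mt-Nd6) in 4n-top, each compared with 2n-whole. Of all genes 2.2%, 0.194% and 0.326% were called. All 16 log2 fold changes stayed negative in this fit, from -0.77 to -1.68 in 4n-whole, -0.05 to -1.37 in 4n-bottom and -0.58 to -1.79 in 4n-top. In it 15, 12 and 13 of the 16 had an unadjusted p below 0.05. That share was not worked out there for all genes (20.4%, 10.2% and 11.3% with the block alone).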

How the data were processed

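The authors aligned the reads of stranded SMART-Seq libraries to GRCm39 with STAR (version 2.7.11a, per the submitters' processing notes) and summed them by gene in featureCounts. The deposited counts, 55984 symbols by 15 libraries, are not normalized. The strand setting, pair handling, rRNA depletion and treatment of reads with several matches are not given in the sources used here. Members and gene lists were chosen with earlier results of these data known.

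Counts were tested with edgeR 4.0.16 (TMM, filterByExpr at min.count 10 and min.total.count 15, population plus mouse as replicate block, all 15 libraries, quasi-likelihood F test, adjusted by Benjamini-Hochberg over 17488 genes). The pairing comes from the subject number in the labels, which is an animal, and residuals of same-mouse libraries correlated across genes with a mean r of 0.158 (0.0845 to 0.227, 21 pairs). Shares were computed from raw counts and given without a test, and levels are TMM-normalized CPM, except levels per kb in the text and means over the 15 libraries, which are per total count. Named were all mRNAs and rRNAs, mt-Tp, called genes and up to 3 of smallest p in each of 4 nuclear lists, and up to 2 in the respiratory chain and mitoribosomal lists. Nuclear copies were found with blastn 2.17.0 and gene positions taken from GENCODE M39. Alternatives were other normalizations, filters and designs, DESeq2 1.42.0, ComBat-seq (sva 3.50.0) and libraries left out.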

Additional observations from a re-analysis of the deposited data

Results flagged for a closer look

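In groups of 4 libraries, a library that stood far from the other 3 was looked for with Dixon's test at the 95% level in 105 groups, of which chance flags about 1 in 20, and 5 groups had one. The mitochondrial genes among them were mt-Co3, at 7.60 normalized CPM in 4n-bottom of mouse 1 against 5.05 to 5.30 in the other 4n-bottom libraries, and mt-Tp, at 20.4 in the same library against 1.34 to 2.57. The nuclear genes were Pnpt1, at 16.8 in 2n-whole of mouse 3 against 30.3 to 32.4, Fastkd2, at 7.83 in 4n-whole of mouse 1 against 6.10 to 6.29, and Cox7b, at 69.8 in 4n-bottom of mouse 3 against 109 to 115. None of the 3 shares of counts had such a library in any of the groups of 4.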

How the results depend on the processing

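The numbers of mitochondrial genes called lower (15 in 4n-whole, 11 in 4n-bottom and 14 in 4n-top, each compared with 2n-whole, and 0 in 4n-top compared with 4n-bottom) rest on the replicate block. Without it they were 0, 0, 0 and 0 (0.229%, 0.0%, 0.0114% and 0.0% of all genes called). With the marker covariate they were 13, 1, 2 and 0 (2.2%, 0.194%, 0.326% and 0.00572% of all genes called), with all 16 fold changes from 2n-whole still negative. Without the filter on low counts they were 15, 13, 15 and 2 (1.8%, 0.369%, 0.664% and 0.0636%). The smallest F test p in 4n-whole was then 9.3e-120, against 9.7e-09 with the filter. Scaled to mitochondrial mRNA counts they were 1, 1, 0 and 0 (64.0%, 50.3%, 60.9% and 0.0%). With libraries left out, the range was 14 to 15 in 4n-whole and 7 (without mouse 4) to 13 in 4n-bottom. It was 13 to 15 in 4n-top and 0 to 0 between the fractions. In the same order, 1.3% to 5.53%, 0.261% to 0.699%, 0.522% to 1.34% and 0.0% to 0.157% of all genes were called. The other alternatives stayed within 1.5 times of each count, and the cause of these differences was not tested, except that the mRNA scale removes by construction what the mRNAs share. Leaving out the 4n-bottom library of mouse 1 and the 4n-whole library of mouse 2 was chosen after seeing the data.

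With rRNA left out, the mean differences in mitochondrial share from 2n-whole were -2.59, -2.08 and -2.99 percentage points in 4n-whole, 4n-bottom and 4n-top. With it they were -10.4, -7.80 and -11.4. These points have unlike bases, since the 2n-whole share was 4.63% without rRNA and 24.0% with it. As ratios to 2n-whole the means were 0.44, 0.55 and 0.353 without rRNA, against 0.565, 0.675 and 0.524 with it. The differences in mRNA share were -2.59 and -2.99 in 4n-whole and 4n-top without rRNA, against -1.87 and -2.19. Their ratios were 0.44 and 0.353, against 0.480 and 0.394. Other alternatives moved the differences in shares by less than 1 SD between libraries, pooled over the compared populations. Within that SD (3.93 points), the difference between 4n-top and 4n-bottom in mitochondrial share still went from -3.61 to -1.15 without mouse 1 or its 4n-bottom library.

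Of 896 log2 fold changes of mitochondrial genes recomputed on other scales than the mRNA scale, 7 changed sign, all between 4n-top and 4n-bottom. That of mt-Tp, -0.19, became 0.031 with ComBat-seq and DESeq2, 0.42 with the covariate and 0.34 with only the compared populations, and ranged from -0.89 to 0.36 with libraries left out. That of mt-Atp8 ranged from -0.39 to 0.10. On the mRNA scale signs changed by construction. In 4n-whole these became 0.26 for mt-Rnr1, 0.32 for mt-Rnr2, 0.12 for mt-Co1, 0.15 for mt-Co2, 0.42 for mt-Atp8, 0.042 for mt-Co3 and 0.13 for mt-Cytb. In 4n-bottom they became 0.26 for mt-Rnr1, 0.32 for mt-Rnr2, 0.037 for mt-Nd1, 0.11 for mt-Co1, 0.20 for mt-Co2, 0.038 for mt-Atp8, 0.078 for mt-Atp6, 0.57 for mt-Co3 and 0.078 for mt-Cytb. In 4n-top they became 0.41 for mt-Rnr1, 0.46 for mt-Rnr2, 0.025 for mt-Nd1, 0.15 for mt-Co1, 0.19 for mt-Atp8, 0.056 for mt-Atp6, 0.15 for mt-Co3 and 0.070 for mt-Cytb. Between the fractions they became 0.14 for mt-Rnr1, 0.15 for mt-Rnr2, 0.046 for mt-Co1, 0.16 for mt-Atp8 and 0.32 for mt-Tp.

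At most 4 mice per population and few counts for mt-Atp8, mt-Nd4l, mt-Co3, mt-Co2 and mt-Tp limit precision.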

Other observations

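Mouse 1 did not follow the other mice in 4n-bottom, where its genes had ratios of both signs. These come from a single pair of libraries and have no error. Against its own 2n-whole library, mt-Rnr1 differed by 0.31 on the log2 scale of normalized CPM, mt-Rnr2 by 0.20, mt-Cytb by 0.23, mt-Nd1 by 0.22 and mt-Co1 by 0.13, while mt-Nd6 differed by -0.14, mt-Nd3 by -0.50 and mt-Nd4l by -0.21. mt-Nd2 and mt-Nd4 differed by 0.06, mt-Nd5 by 0.02 and mt-Atp6 by -0.01. mt-Co3 differed by 0.29, mt-Tp by 0.25, mt-Co2 by 0.21 and mt-Atp8 by -0.32. The 4n-top library of this mouse was left out by the authors, so the fractions could not be compared in it.

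The ratio of mt-Rnr2 to mt-Rnr1 counts, which come from neighboring genes of the same transcript, was 1.40 to 1.64 over the 15 libraries. It was higher in 4n-whole than in 2n-whole in 3 of 4 mice, in 4n-bottom in 3 of 4 and in 4n-top in 3 of 3, with overlapping ranges. Reads given to Rn18s-rs5, a symbol of cytosolic 18S rRNA, were 0.932% to 2.62% of counts in 2n-whole and 1.11% to 3.85% over the 4n libraries. They were higher than in 2n-whole in 4 of 4 mice in 4n-whole, 3 of 4 in 4n-bottom and 2 of 3 in 4n-top. In mouse 1 the 4n-whole value was 1.13% against 1.11%.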
